A study of Mus musculus with 4 samples.

Results

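The genes described here are 10 receptors of the tumour necrosis factor (TNF) receptor family, taken by name from a list that was put together with earlier results of these data known; no measured value enters the rule. The list holds Tnfrsf13b, Tnfrsf13c, Tnfrsf17, Cd40, Cd27, Tnfrsf14, Tnfrsf18, Fas, Tnfrsf1a and Tnfrsf1b. All 10 had an entry among the 20599 gene symbols of the RNA-Seq files, and 9 of them were among the 12078 genes with enough counts for a test. RNA-Seq libraries of wild-type C57BL/6 mice were compared between peritoneal B1a cells (n = 2) and splenic follicular B2 cells (n = 2). According to the study's methods the B1a cells were sorted from peritoneal washes by surface markers that included CD5 and IgM and the absence of CD23, and the B2 cells from spleens by markers that included CD21, high IgD and low IgM. The labels name no treatment. The sample labels give an age of 4 weeks for both groups, whereas the methods give an older age for the mice of the B2 libraries, so cell type, tissue and possibly age cannot be told apart. By the methods, the wild-type mice were littermates of mice whose B lineage lacks DNMT3A, an enzyme that methylates CpG dinucleotides; elsewhere the methods name C57BL/6J mice as the controls, and which alleles the littermates carried is not given there.

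TNF family receptors are membrane proteins that are engaged by trimeric ligands of the TNF family. Most of them recruit TRAF adaptor proteins and activate NF-kB, through the canonical arm or through the slower non-canonical arm that processes the p100 protein encoded by Nfkb2, while those with an intracellular death domain, such as Fas and Tnfrsf1a, can start apoptosis or necroptosis. Of the receptors for BAFF and APRIL, the ligands that set B cell survival, BAFF-R (Tnfrsf13c) binds BAFF and is required by follicular B cells, TACI (Tnfrsf13b) binds both ligands and is prominent on innate-like B cells, and BCMA (Tnfrsf17) is characteristic of plasma cells.

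The libraries held between 11032732 and 18588623 counts. On the scale of CPM (counts scaled to a common library total), each computed on the library size after TMM scaling, 3 counts corresponded to between 0.157 and 0.270 CPM. This floor covers counting error only. At least 1 count was found for 11290 and 12456 symbols in the B1a replicates and for 14223 and 12934 in the B2 replicates. By the methods, the number of B1a cells sorted was a range that reached below the number of B2 cells. The labels were checked against defining markers. The B cell markers Ms4a1, Cd79a, Cd79b, Pax5 and Cd22 were above 3 counts in every library, the summed level of 5 B1 markers was 1181 and 893 CPM in B1a cells against 75.7 and 75.3 CPM in B2 cells, and that of the follicular markers Fcer2a and Cr2 was 162 and 153 CPM against 1902 and 1942 CPM. The B1a replicates resembled each other less (Pearson's r of log2 CPM across tested genes, which are not independent, 0.836) than the B2 replicates (0.966). Between libraries of different cell type r lay between 0.788 and 0.858. The B1a replicates were thus no more alike than the closest pair of libraries across the cell types. The median difference between replicates on the log2 scale was 0.54 in B1a cells and 0.22 in B2 cells over all tested genes, and 0.20 and 0.15 over the 9 tested receptors. Fas enters the B1a median as a difference of 0 because it had 0 counts in both B1a libraries. The other B1a differences of the receptors ran from 0.04 for Cd40 to 2.17 for Cd27. The labels number the replicates and the methods name 2 wild-type littermates for each cell type.

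Windows of 300 bases around the annotated transcription start are shown for the pair of receptors for BAFF and APRIL that were detected and for Tnfrsf1b, since the study concerns CpG modification and these are the receptors on which the comparison turns. Each runs 5′ to 3′ on the strand of the gene, from 250 bases before to 50 bases after the start site, and comes from RefSeq (GRCm38.p6). Capitals mark CpG dinucleotides.
Tnfrsf13b, chr11:61126505-61126804, plus strand: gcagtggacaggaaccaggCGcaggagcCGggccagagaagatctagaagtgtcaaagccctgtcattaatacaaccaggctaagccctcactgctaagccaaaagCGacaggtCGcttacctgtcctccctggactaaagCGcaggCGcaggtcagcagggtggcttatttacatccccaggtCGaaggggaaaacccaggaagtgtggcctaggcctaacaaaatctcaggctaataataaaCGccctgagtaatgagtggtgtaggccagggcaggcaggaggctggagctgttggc
Tnfrsf13c, chr15:82224331-82224630, minus strand: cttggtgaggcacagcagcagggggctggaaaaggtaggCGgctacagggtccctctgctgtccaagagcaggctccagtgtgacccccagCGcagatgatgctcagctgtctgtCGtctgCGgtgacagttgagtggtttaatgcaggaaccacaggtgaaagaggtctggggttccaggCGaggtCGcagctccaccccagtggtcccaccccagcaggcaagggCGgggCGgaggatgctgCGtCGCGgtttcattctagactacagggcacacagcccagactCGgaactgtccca
Tnfrsf1b, chr4:145246821-145247120, minus strand: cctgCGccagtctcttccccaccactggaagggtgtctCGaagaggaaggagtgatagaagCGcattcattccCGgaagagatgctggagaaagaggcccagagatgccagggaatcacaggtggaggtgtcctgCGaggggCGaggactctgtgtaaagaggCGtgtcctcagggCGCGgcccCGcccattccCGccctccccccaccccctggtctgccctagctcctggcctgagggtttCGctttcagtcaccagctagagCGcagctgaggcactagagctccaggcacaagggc
The Tnfrsf13b window holds 8 CpG dinucleotides, the Tnfrsf13c window 12 and the Tnfrsf1b window 13. Over 32851 windows of the same length the median was 7, with quartiles of 3 and 20, so all 3 windows lay between the median and the upper quartile. Of the 10 receptors, 9 had a window in the table, and their CpG counts ran from 2 in Tnfrsf14 to 14 in Fas. The Tnfrsf13b window lies inside the annotated span of its gene, because the start site in the table is downstream of the outermost one. Methylation of these windows was not analysed here.

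B1a and B2 cells carried different proportions of the transcripts for the BAFF and APRIL receptors. Tnfrsf13c was 3.03-fold higher in B2 cells, Tnfrsf13b was at a higher level in both B1a libraries without passing the test, and Tnfrsf17 was not detected in either cell type. Among the other receptors, Tnfrsf1b (TNF receptor type 2) was 4.30-fold higher in B1a cells. Thus 2 of the 9 tested receptors were called at a p below 0.05 (edgeR's quasi-likelihood test, adjusted over all genes by Benjamini-Hochberg), 1 in each direction, against 5.74% of all tested genes. By direction, 4.24% of all tested genes were called with a higher level in B1a cells and 1.50% with a higher level in B2 cells. The CPM ranges of the cell types did not overlap for 6 of the 9, 3 with B1a cells on top and 3 with B2 cells on top, against 54.3% of all tested genes. An unadjusted p under 0.05 was reached by 5 of the 9, against 20.9% of all tested genes. The median log2 fold change (B1a minus B2) was 0.21 over the 9 receptors and -0.03 over all tested genes. In bulk libraries, fewer cells that carry a transcript and less of the transcript per cell cannot be told apart, and this holds for every difference given here.

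**Figure D1:**
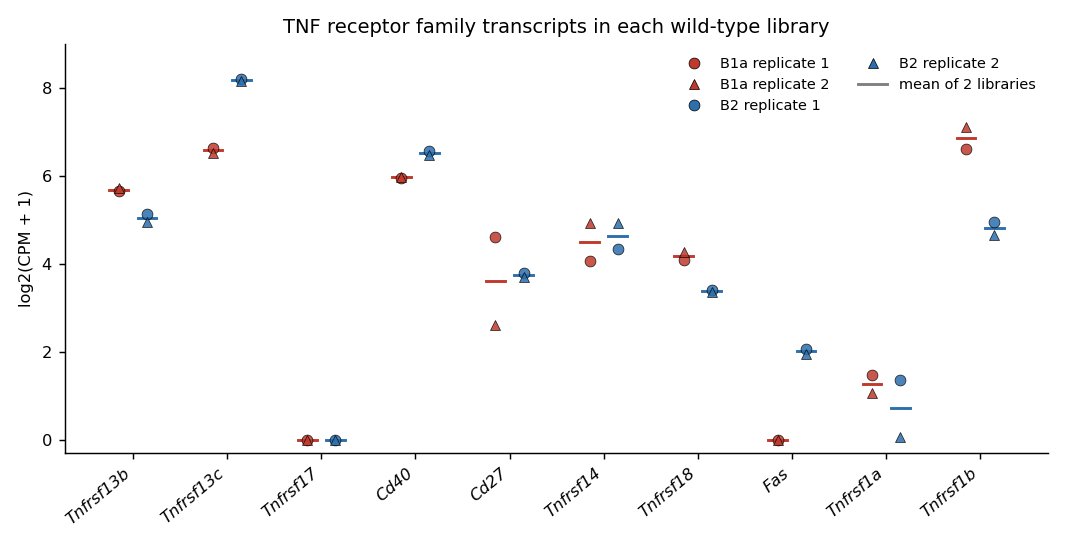
Level of each of the 10 receptors in each library, as log2(CPM + 1), with circles for replicate 1, triangles for replicate 2 and a line at the mean of the 2 libraries of a cell type. Tnfrsf13c lies higher in both B2 libraries, Tnfrsf1b lies higher in both B1a libraries, Tnfrsf17 is at 0 in all 4, and the B1a replicates of Cd27 lie on either side of both B2 libraries.

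Tnfrsf13c (BAFF-R; chr15:82221742-82224380, minus strand) had levels of 99.0 and 91.3 CPM in the 2 B1a libraries, compared with 292 and 284 CPM in the 2 B2 libraries. Both B2 libraries were above both B1a libraries, and the gap was far wider than the spread within either pair (95.1 ± 5.43 against 288 ± 5.28 CPM, mean ± SD, n = 2 each). The log2 fold change was -1.60 ± 0.14 (SE, 95% interval -1.94 to -1.26, adjusted p = 0.00384, edgeR's quasi-likelihood test, Benjamini-Hochberg). The call held in each of 10 other ways of processing and when any 1 of the 4 libraries was left out.

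Tnfrsf13b (TACI; chr11:61126283-61153170, plus strand) reached 49.1 and 52.1 CPM in the B1a pair against 34.1 and 29.8 CPM in the B2 pair. Both B1a libraries were above both B2 libraries (50.6 ± 2.08 against 31.9 ± 3.04 CPM, mean ± SD, n = 2 each). The log2 fold change was 0.66 ± 0.26 (SE), with a 95% interval of 0.03 to 1.30, and did not pass the threshold after adjustment over all genes (adjusted p = 0.221, edgeR's quasi-likelihood test). None of 10 other ways of processing called it, with log2 fold changes of 0.42 to 0.69. With 1 library left out the log2 fold change lay between 0.56 and 0.76. Tnfrsf13b was then called only without a B1a library, a setting in which the spread came from the B2 pair, and not without a B2 library. The RefSeq gene overlaps Usp22 by 1390 bases, but the entry used for counting has a length of 750 bases, which equals the coding length of Tnfrsf13b with its stop codon in GENCODE, and 0 of these bases lie in exons of Usp22.

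Tnfrsf17 (BCMA; chr16:11313232-11320074, plus strand) had 0 counts in all 4 libraries and was not tested. For counting error only, a count of 0 at these depths allows up to 0.269 and 0.270 CPM in the B1a replicates, and 0.260 and 0.157 CPM in the B2 replicates. A count of 0 in a single replicate did not always go with a low level in the other, as Sdc1 in B1a cells shows. Sdc1, which encodes the plasma cell surface protein syndecan-1, had 0 and 8.27 CPM in B1a cells versus 13.4 and 25.2 CPM in B2 cells (adjusted p = 0.543, edgeR's quasi-likelihood test). Of the 5 plasma cell markers with an entry, all tested, 1 was called (5.74% of all tested genes were), with a median log2 fold change of -0.11. It was Prdm1, a regulator of plasma cell differentiation, at 22.4 and 36.2 CPM in B1a cells versus 4.16 and 4.13 CPM in B2 cells (adjusted p = 0.0346, edgeR's quasi-likelihood test). Xbp1 (60.2 and 58.7 CPM versus 59.3 and 78.6 CPM) and Igj (0.179 and 5.40 CPM versus 3.47 and 2.56 CPM) overlapped between the cell types. Irf4 was also higher in both B1a libraries, at 355 and 530 CPM versus 262 and 274 CPM, without being called.

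To compare the receptors with each other, TPM values were used, in which the authors scaled each level by transcript length and to a common total per library. Tnfrsf13b had 168 and 173 TPM in the B1a replicates and 137 and 118 TPM in the B2 replicates. Tnfrsf13c had 125 and 112 TPM in the B1a replicates and 432 and 415 TPM in the B2 replicates. The levels of this pair were therefore in opposite order in the cell types: the ratio of Tnfrsf13b to Tnfrsf13c was 1.34 and 1.54 in the B1a replicates, whereas in the B2 replicates Tnfrsf13c exceeded Tnfrsf13b by 3.16 and 3.52 times. Of the summed TPM of the BAFF and APRIL receptors, Tnfrsf13b made up 59.0 ± 2.37% in B1a cells and 23.1 ± 1.36% in B2 cells (mean ± SD, n = 2 each), and Tnfrsf13c the remaining 41.0% and 76.9%. The sum itself was lower in B1a cells, at 289 ± 4.81 TPM against 551 ± 25.9 TPM. The shares did not overlap between the cell types, but an exact two-sided permutation test with 2 libraries against 2 cannot give a p below 0.33.

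The order within B1a cells depended on the scale. By CPM, which takes no account of length, Tnfrsf13b made up 34.7% of the summed level in B1a cells and 9.97% in B2 cells, so that Tnfrsf13c was the higher of the pair in both. The entry of Tnfrsf13b covers coding bases only (750 bases, where the longest GENCODE transcript has 2556), while that of Tnfrsf13c has 1906 bases, and bases outside the coding sequence of Tnfrsf13b are not part of its entry. The direction between the cell types was the same on both scales.

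**Figure D2:**
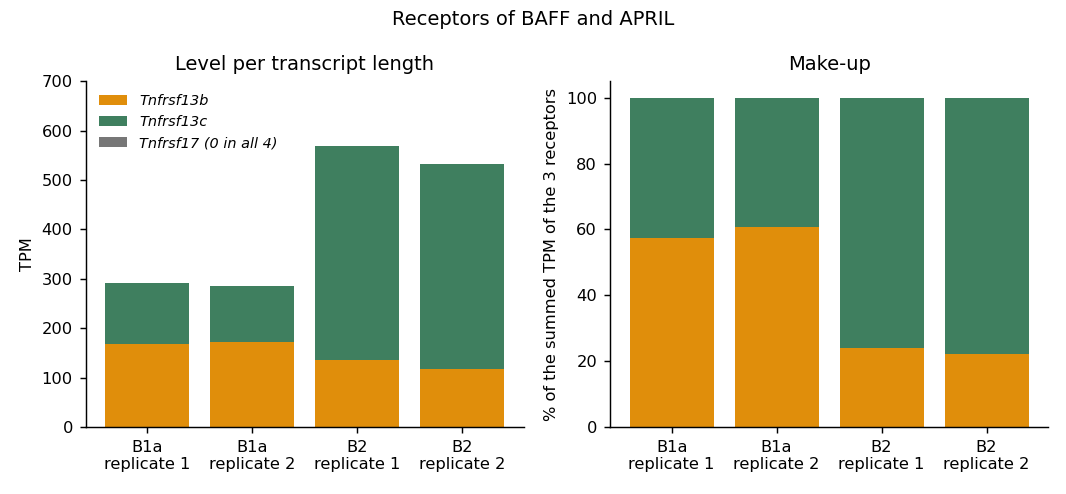
The receptors of BAFF and APRIL in each library, as stacked TPM (left) and as a percentage of their summed TPM (right). Tnfrsf13b takes the larger share in both B1a libraries and Tnfrsf13c in both B2 libraries, where the stack is also taller.

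Among the 10058 tested genes whose mean reached 5 CPM, those with the pattern across the 4 libraries most like Tnfrsf13b, by Euclidean distance of centred log2 CPM, were Ezh1 (distance 0.05), Gpatch1 (0.06) and Hsd17b12 (0.06). Those most like Tnfrsf13c were Arl5b (0.06), 2310022B05Rik (0.10) and Mlst8 (0.11). With only 4 libraries such closeness is a description, and none of these 6 genes was called, with adjusted p between 0.0746 and 0.325 by edgeR's quasi-likelihood test.

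The costimulatory receptors Cd40, Cd27, Tnfrsf14 and Tnfrsf18 showed smaller or less certain differences, and 0 of the 4 were called by edgeR's quasi-likelihood test, 1 having an unadjusted p under 0.05. None of 10 other ways of processing called any of the 4 with all libraries in the fit. Cd40 (chr2:165055614-165071654, plus strand) receives T cell help and is held by all mature B cells. It had levels of 60.7 and 62.3 CPM in the 2 B1a libraries, compared with 94.1 and 87.8 CPM in the 2 B2 libraries. Both B2 libraries were above both B1a libraries (61.5 ± 1.16 against 90.9 ± 4.49 CPM), and the log2 fold change of -0.56 ± 0.19 (SE, 95% interval -1.03 to -0.09) did not pass adjustment (adjusted p = 0.173). Over 10 other ways of processing the adjusted p lay between 0.0564 and 0.242. With 1 library left out the log2 fold change lay between -0.62 and -0.51. Cd40 was then called only without a B1a library, not without a B2 library.

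Tnfrsf18 (GITR, known for its role on regulatory T cells; chr4:156026322-156028894, plus strand) reached 16.0 and 18.3 CPM in the B1a pair against 9.54 and 9.20 CPM in the B2 pair. Both B1a libraries were the higher, but the log2 fold change of 0.87 ± 0.51 (SE, 95% interval -0.39 to 2.13) did not pass edgeR's quasi-likelihood test (adjusted p = 0.418). With 1 library left out the log2 fold change lay between 0.77 and 0.97. Foxp3, the defining factor of regulatory T cells, was at 0 and 5.58 CPM in B1a cells versus 6.77 and 5.33 CPM in B2 cells, so it was not higher in B1a cells. The summed level of Foxp3, Ctla4 and Ikzf2, 3 markers of regulatory T cells, was 166 and 140 CPM in B1a cells and 8.76 and 10.9 CPM in B2 cells, nearly all of it Ctla4 in B1a cells. The summed level of 8 T cell markers was 108 and 68.8 CPM against 84.3 and 83.0 CPM. Of the 7 tested markers 0 were called by edgeR (5.74% of all tested genes were) and 2 had an unadjusted p under 0.05 (20.9% of all tested genes had). Cd4 and Cd28 were at 0 in both B1a libraries, Cd3d was level (14.6 and 18.3 CPM versus 15.7 and 15.4 CPM), and Lck was higher in both B1a libraries (56.5 and 45.1 CPM versus 44.5 and 39.7 CPM). The locus lies 9.71 kb from its family neighbour Tnfrsf4 and is overlapped by a long non-coding gene that has no entry in the files.

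Cd27 (a receptor for CD70 that marks memory B cells in humans; chr6:125232620-125237136, minus strand) had levels of 23.6 and 5.13 CPM in the 2 B1a libraries, compared with 12.9 and 11.9 CPM in the 2 B2 libraries. The B1a replicates lay on either side of the B2 pair and differed from each other by 2.17 on the log2 scale. The T cell markers Cd8a (23.8 and 4.32 CPM) and Cd3g (10.4 and 0.180 CPM) were likewise higher in B1a replicate 1. Cd3d was not (14.6 and 18.3 CPM). The part of T cells in the level of Cd27 was not tested. No direction can be given for Cd27: its log2 fold change was 0.21 ± 0.79 (SE, 95% interval -1.74 to 2.15, adjusted p = 0.925), and its sign turned in 5 of 10 other ways of processing. Without B1a replicate 1 the log2 fold change was -1.28 and without B1a replicate 2 it was 0.92. A non-coding gene without an entry in the files overlaps the whole Cd27 locus, and the counting is not stated to use strand.

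Tnfrsf14 (HVEM, the receptor of the ligand LIGHT; chr4:154918487-154928620, minus strand) reached 15.9 and 29.3 CPM in the B1a pair against 19.2 and 29.7 CPM in the B2 pair. The ranges overlapped, the replicates differing by 0.88 (B1a) and 0.63 (B2) on the log2 scale, and the log2 fold change was -0.11 ± 0.47 (SE, 95% interval -1.27 to 1.04, adjusted p = 0.929). Its sign turned without B1a replicate 1 (0.25) and without B2 replicate 2 (0.23).

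Of the TNF receptors and the death receptor Fas, Tnfrsf1b (TNF receptor type 2, which lacks a death domain and signals through TRAF2; chr4:145212368-145246870, minus strand) was the one called. It had levels of 96.1 and 138 CPM in the 2 B1a libraries, compared with 30.1 and 24.4 CPM in the 2 B2 libraries. Both B1a libraries were well above both B2 libraries (117 ± 29.5 against 27.3 ± 4.02 CPM, mean ± SD, n = 2 each). The log2 fold change was 2.10 ± 0.27 (SE, 95% interval 1.44 to 2.77, adjusted p = 0.0117, edgeR's quasi-likelihood test, Benjamini-Hochberg). The call held in 8 of 10 other ways of processing and without any 1 library, and missed the threshold with limma on log2(TPM + 1) and log2(TPM + 0.1) (adjusted p = 0.0535 and 0.0636). Tnfrsf1b made up 9.65 ± 2.09% of the summed TPM of the 10 receptors in B1a cells and 1.77 ± 0.245% in B2 cells. By CPM, which favours its long transcript, these shares were 30.6% and 5.57%.

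Tnfrsf1b is also expressed by macrophages and regulatory T cells, and a macrophage marker list moved in the same direction. The summed level of 9 macrophage markers was 199 and 252 CPM in the B1a replicates and 66.9 and 69.2 CPM in the B2 replicates, with 4 of the 8 tested markers higher in both B1a libraries (25.3% of all tested genes were) and 1, Lyz2, called (4.24%). Lyz2 made up the larger part of the sum in B1a cells, at 127 and 136 CPM versus 16.8 and 27.2 CPM in B2 cells. Emr1, 1 of the 4 higher in B1a cells, was at 27.7 and 39.0 CPM in B1a cells versus 8.24 and 11.9 CPM in B2 cells. Cd68, another of the 4, was at 16.3 and 22.1 CPM versus 8.59 and 3.35 CPM. Csf1r overlapped between the cell types, at 16.9 and 21.9 CPM in B1a cells versus 21.2 and 18.3 CPM in B2 cells. The summed level of 5 mast cell markers was 41.1 and 13.4 CPM in B1a cells and 1.48 and 0.941 CPM in B2 cells, with all 3 tested markers (Cpa3, Cma1 and Kit) higher in both B1a libraries. Cma1 was called, with a mean of 13.3 CPM in B1a cells and 0 counts in both B2 libraries (adjusted p = 0.0499, edgeR's quasi-likelihood test), while Fcer1a was at 0 in all 4 libraries. The part of such cells in the level of Tnfrsf1b was not tested.

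Tnfrsf1a (TNF receptor type 1, which carries a death domain; chr6:125349723-125362483, plus strand) was close to the floor, with 20 and 12 counts in the B1a replicates and 18 and 1 counts in the B2 replicates. These correspond to 1.79 and 1.08 CPM against 1.56 and 0.0523 CPM, and the adjusted p was 0.867. A difference was not detectable at these counts, and the B2 replicates differed by 3.07 on the log2 scale. Per length, Tnfrsf1b exceeded Tnfrsf1a by 23.0 and 54.8 times in the B1a replicates and by 8.28 times in B2 replicate 1, while in B2 replicate 2 the ratio rests on 1 count of Tnfrsf1a.

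Fas (CD95; chr19:34290647-34327775, plus strand) had 0 counts in both B1a libraries and 37 and 55 counts in the B2 replicates (3.21 and 2.88 CPM). Against a floor of 3 counts in each B1a library, which covers counting error only, the mean level in B2 cells was 11.3-fold higher. The 95% interval of the log2 fold change (B1a minus B2) ran from -14.2 to -2.46. The groups did not overlap, but the adjusted p of edgeR's quasi-likelihood test was 0.131. DESeq2 was the only one of 9 other ways of processing that could test Fas to call it (adjusted p = 0.0297). With 1 library left out its log2 fold change lay between -8.41 and -8.19. Fas was then called only without a B1a library, not without a B2 library. The T cell marker Cd4 had a like pattern, at 0 in both B1a libraries and 3.21 and 3.24 CPM in the B2 replicates. Of the 7 tested T cell markers, 3 were higher in both B2 libraries and 1 in both B1a libraries (29.0% and 25.3% of all tested genes were). The summed level of 4 NK cell markers was 0 in both B1a libraries and 3.30 and 2.09 CPM in the B2 replicates. The part of such cells in the level of Fas was not tested.

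**Figure D3:**
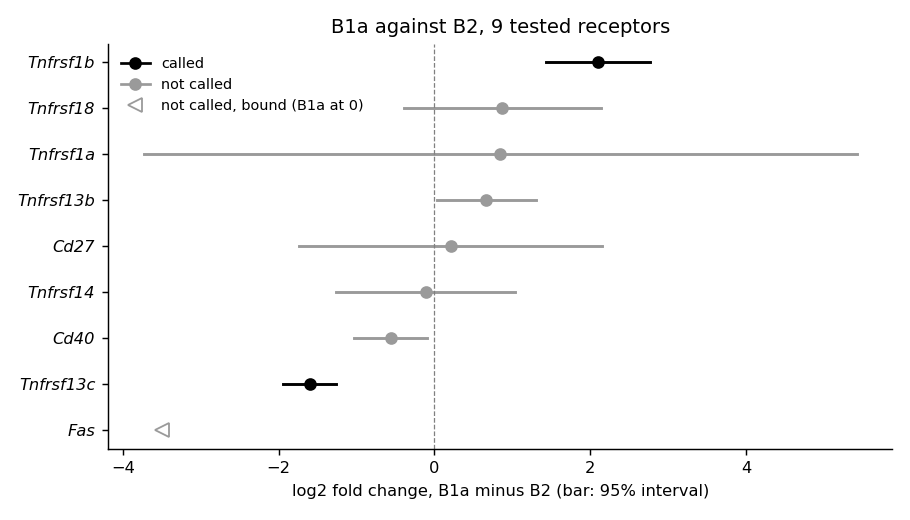
Log2 fold change (B1a minus B2) of the 9 tested receptors with 95% intervals from edgeR's quasi-likelihood fit, black where called and grey otherwise. The intervals of the called Tnfrsf1b and Tnfrsf13c lie clear of 0, and those of Tnfrsf13b and Cd40 end close to 0. Fas, with 0 counts in B1a cells, is drawn without its interval, at 11.3-fold, a bound for counting error only.

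Ranked by mean TPM, the receptors of B1a cells ran from Tnfrsf13b (170 ± 4.01 TPM) through Tnfrsf13c (118 ± 8.82) and Cd40 (90.7) to Tnfrsf14, Tnfrsf1b and Tnfrsf18, followed by Cd27 and Tnfrsf1a, with Tnfrsf17 and Fas at 0. The ranges of Tnfrsf14, Tnfrsf1b and Tnfrsf18, which lay between 44.3 and 80.7 TPM, overlapped, so their order is not set by these libraries. In B2 cells Tnfrsf13c came first (424 ± 12.4 TPM), above 98.6% and 98.5% of all gene symbols in the 2 libraries. It was followed by Cd40 (155 ± 7.67 TPM), Tnfrsf13b (127 ± 13.5 TPM), Tnfrsf14, Tnfrsf18, Cd27, Tnfrsf1b, Fas and Tnfrsf1a, and no neighbours in that order overlapped between libraries. The 10 receptors together summed to 569 ± 11.0 TPM in B1a cells and 858 ± 17.9 TPM in B2 cells. Tnfrsf13c made up 20.8 ± 1.96% of that sum in B1a cells and 49.4 ± 0.421% in B2 cells.

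Lengths that differ between libraries affect TPM but not CPM. The length used for Tnfrsf18 was 804 bases in B1a replicate 1 and 1007 bases in the other 3 libraries, that of Cd27 was 1430 bases in B1a replicate 2 and 1576 in the others, and that of Tnfrsf13b, Tnfrsf13c, Tnfrsf14, Tnfrsf1a and Tnfrsf1b was the same in all 4. The length of Cd40 ran from 1596 bases in B1a replicate 2 to 1665 in B2 replicate 1. That of Fas was 1218 and 1486 bases in the B2 replicates, where it was detected. The receptor counts were hardly affected by reads shared between genes, since the largest posterior standard deviation of a receptor count in a library was 2.05 counts.

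A search of the 9 promoter windows for motifs gave few matches. The E-box CACGTG, found in 7.15% of all windows, was present in the Fas window only, 110 bases before the start site. GAGGAA, an ETS-type core found on either strand in 28.3% of all windows, was present in the windows of Tnfrsf17, Tnfrsf18 and Tnfrsf1b. The palindromic consensus of the EBF1 factor (0.904% of all windows) and the NF-kB consensus (8.46%) were present in 0 of the 9. Both strands were searched for each motif on its own, and a match is a description of the sequence.

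Genes around the receptors were taken from lists of the pathway. Of 18 other genes of the receptor family, 12 were tested and 3 were called, all higher in B1a cells (4.24% of all tested genes were), with a median log2 fold change of 0.44 against -0.03 over all tested genes. Tnfrsf8 (CD30, a receptor of activated lymphocytes) was at 64.2 and 84.9 CPM in B1a cells versus 0.607 and 0 CPM in B2 cells (adjusted p = 0.00967, edgeR's quasi-likelihood test). It lies 20.3 kb from Tnfrsf1b on chromosome 4. Tnfrsf19 (TROY) was at 57.1 and 64.2 CPM in B1a cells versus 3.56 and 1.62 CPM in B2 cells, with a log2 fold change of 4.57 ± 0.49 (SE, adjusted p = 0.00681). Relt was at 230 and 152 CPM against 26.5 and 31.4 CPM, with a log2 fold change of 2.72 ± 0.26 (SE, adjusted p = 0.00481). For each of these 3 receptors both B1a libraries were far above both B2 libraries. Relt was called in 10 of 10 other ways of processing, Tnfrsf19 in 9 of 10 and Tnfrsf8 in 7 of the 9 that could test it.

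Of 18 ligands of the family, 9 had enough counts for a test and 1 was called (5.74% of all tested genes were), with a median log2 fold change of 0.01. The genes for BAFF and APRIL themselves were too low for a test: Tnfsf13b (BAFF) had 0 and 10 counts in the B1a replicates and 6.63 and 0 in the B2 replicates. Tnfsf13 (APRIL) had 0 and 2 counts against 4 and 0. Both ligands are known to come mainly from myeloid and stromal cells. The called ligand, Tnfsf8, encodes the CD30 ligand and was at 34.1 and 31.6 CPM in B1a cells versus 0.347 and 0 CPM in B2 cells (adjusted p = 0.0201, edgeR's quasi-likelihood test), so that the transcripts of CD30 and of its ligand were both at a higher level in both B1a libraries. The call of Tnfsf8 held in 7 of the 9 other ways of processing that could test it.

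Of 14 genes of the TRAF adaptors and the non-canonical NF-kB arm, all tested, 1 was called in each direction (4.24% and 1.50% of all tested genes were), with a median log2 fold change of -0.41. The CPM ranges of 9 of the 14 lay entirely higher in B2 cells and those of 2 entirely higher in B1a cells, against 29.0% and 25.3% of all tested genes. Traf5, an adaptor used by CD27 and CD40, was at 31.3 and 38.3 CPM in B1a cells versus 103 and 96.2 CPM in B2 cells. Traf5 thus had a log2 fold change of -1.52 ± 0.22 (SE, adjusted p = 0.0182, edgeR's quasi-likelihood test), and without B2 replicate 1 the adjusted p was 0.0911. Traf1, a TRAF that is itself induced by NF-kB, was at 52.5 and 60.3 CPM in B1a cells versus 23.0 and 18.8 CPM in B2 cells. The log2 fold change of Traf1 was 1.43 ± 0.28 (SE, adjusted p = 0.0448). The call of Traf1 was lost in 3 of 10 other ways of processing and without either B2 library (adjusted p = 0.219 and 0.442). Nfkb2, named after its values were seen, was at 164 and 218 CPM in B1a cells versus 324 and 321 CPM in B2 cells and just missed the threshold (log2 fold change -0.75 ± 0.17, SE, adjusted p = 0.0656), while 7 of 10 other ways of processing called it.

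In the death receptor arm, which joins death domain receptors to caspases and to necroptosis, 16 of 17 genes were tested and 1 was called, a share close to the 5.74% of all tested genes, with a median log2 fold change of 0.00. That gene was Tnfaip3, which encodes the NF-kB inhibitor A20, at 276 and 221 CPM in B1a cells and 80.8 and 79.0 CPM in B2 cells (log2 fold change 1.64 ± 0.17, SE, adjusted p = 0.00597, edgeR's quasi-likelihood test). Of 11 survival genes 10 were tested and 2 were called, both higher in B1a cells (4.24% of all tested genes were), with a median log2 fold change of 0.22. This list also holds the pro-apoptotic genes Bcl2l11, Bax and Bak1 (log2 fold changes 0.27, 0.02 and 0.17, none called). Its median is therefore not that of anti-apoptotic genes alone. The kinase gene Pim1 was at 450 and 425 CPM in B1a cells versus 38.4 and 33.9 CPM in B2 cells (log2 fold change 3.60 ± 0.15, SE, adjusted p = 0.00054). Mcl1, an anti-apoptotic BCL2 family gene on which B cell survival depends, was at 1383 and 1408 CPM against 778 and 762 CPM (log2 fold change 0.86 ± 0.10, SE, adjusted p = 0.00771). Neither gene overlapped between the cell types, and of 10 other ways of processing 10 called Pim1 and 9 called Mcl1. Pim2, also named after its values were seen, was at 151 and 99.0 CPM in B1a cells versus 56.8 and 51.6 CPM in B2 cells (adjusted p = 0.0550), and 6 of the 10 called it.

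**Figure D4:**
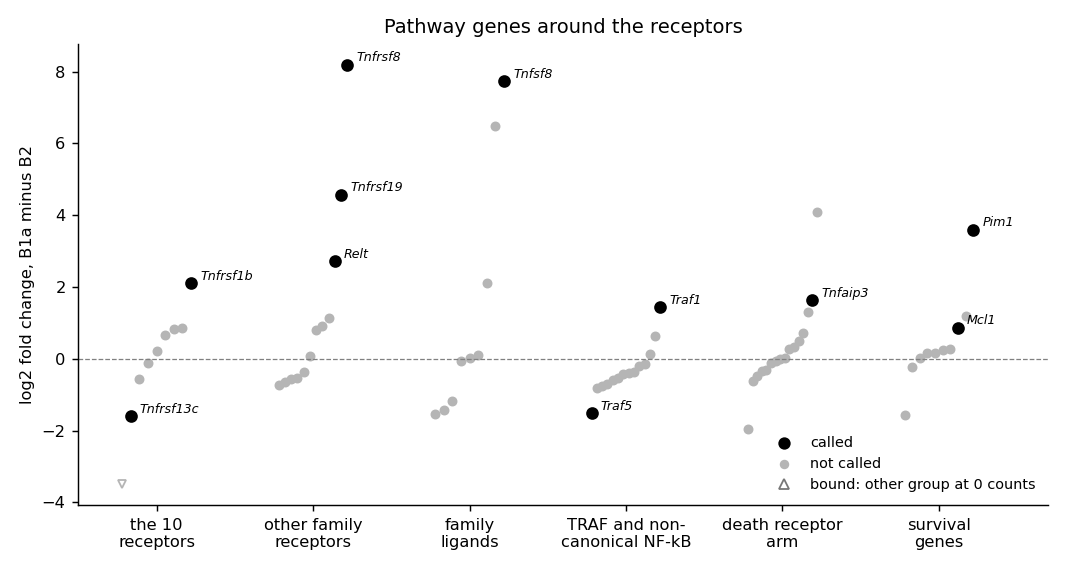
Log2 fold change (B1a minus B2) of the tested genes of the 10 receptors and of 5 lists of pathway genes, black and named where called. Called genes of the other family receptors, the ligands, the death receptor arm and the survival genes are all higher in B1a cells, whereas the 10 receptors and the TRAF list have 1 called gene in each direction. The open triangle is Fas, a bound for counting error only, because B1a cells had 0 counts. Points of genes with a few counts, such as Tnfsf4 at 6.49, are loosely determined.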

How the data were processed

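RNA-Seq libraries of wild-type B1a cells (2) and B2 cells (2) were analyzed; libraries of DNMT3A-deficient cells and the methylation and chromatin data were not analysed here. Alignment (mm10) and quantification of RefSeq genes were done by the authors with RSEM, for which the submitters' processing notes give version 1.2.29 and the study's methods another. The authors deposited expected counts for 21970 gene entries, which are not normalized and divide reads that fit several entries. The authors also deposited TPM and FPKM values, scaled per transcript length and library, a signal value (the posterior standard deviation of each count), and transcript lengths in bases.

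Entries with the same symbol were added up and rounded, genes were kept by filterByExpr, and TMM factors went into a quasi-likelihood fit in edgeR 4.0.16 (R 4.3.3; threshold 0.05 on p-values with Benjamini-Hochberg adjustment over 12078 genes). Standard errors and 95% intervals were derived from the F statistic. The study's test, EBSeq, was not run. Replicate numbers come from the labels, which pair no samples, so the p-values measure the spread between these libraries. The depth per library ranged from 11032732 to 18588623 counts; a floor of 3 counts was used.

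Alternatives were upper quartile factors, DESeq2 1.42.0, limma-voom (limma 3.58.1) with and without a weight for each cell type, a minimum of 10 counts per library, only genes without any count removed, limma on log2(TPM + 1) and log2(TPM + 0.1) for a mean TPM of at least 1, a replicate block, entries without summing, and each library left out in turn. FPKM served only as another scale for the receptor shares. The receptors, pathway lists, marker lists and tests were chosen with earlier results of these data known. Named genes are the 10 receptors, the called genes of each pathway list, Tnfsf13b and Tnfsf13, and the 3 genes most like each tested receptor of BAFF and APRIL; marker genes, Nfkb2, Pim2 and genes with a few counts were named after their values were seen. Positions come from the RefSeq annotation of GRCm38.p6 and transcript lengths from GENCODE.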

Additional observations from a re-analysis of the deposited data

How the results depend on the processing

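With all 4 libraries, the calls of Tnfrsf13c (10 of 10 alternatives) and Tnfrsf1b (8 of 10) kept their direction, and the number of receptors called fell from 2 to 1 with limma on TPM values and either pseudocount (1 or 0.1). On the TPM scale the median log2 fold change of all tested genes moved from -0.03 to -0.30 and -0.32, and 266 of 499 calls were higher in B1a cells with log2(TPM + 1) against 512 of 693. Calls over all genes also numbered 1550 with DESeq2, 1415 with cell type weights, 1141 without a filter and 359 with log2(TPM + 0.1). Cd27 turned to -0.15 with limma-voom, to -0.15 with cell type weights, to -0.31 and -0.34 with log2(TPM + 1) and log2(TPM + 0.1), to -0.17 with the replicate block and to -1.28 without B1a replicate 1, against 0.92 without B1a replicate 2. Tnfrsf14 turned to 0.25 without B1a replicate 1 and to 0.23 without B2 replicate 2 (range -0.63 to 0.25 with 1 library left out), and Tnfrsf1a to -0.13 without B2 replicate 2 (range -0.13 to 4.56). Of the other receptors of the family 1 of 3 calls was left with log2(TPM + 0.1). The 1 called ligand became 2 with DESeq2 and with cell type weights, and 0 with limma-voom, log2(TPM + 0.1) and the minimum of 10 counts, where only 4 ligands were tested. The 2 calls of the TRAF list became 1 with upper quartile factors and with log2(TPM + 0.1), and 3, with Nfkb2 added, with DESeq2, limma-voom, cell type weights, the minimum of 10 counts and no filter. The 1 call of the death receptor arm became 2 with DESeq2 and 3 with cell type weights, and the 2 calls of the survival genes became 1 with log2(TPM + 0.1) and 3, with Pim2 added, with those 5 settings and the replicate block. By CPM the share of Tnfrsf13b was 34.7% in B1a cells and 9.97% in B2 cells. The cause of these changes was not tested.

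Leaving out 1 library gave 2 to 7 called receptors, 3 to 8 other family receptors, 1 to 6 ligands, 0 to 9 TRAF list genes, 1 to 7 death receptor arm genes and 2 to 4 survival genes, against 539 to 6143 calls over all genes. The high ends came without a B1a library, where the lone B1a library is assumed to vary like the B2 pair.

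Replicates with the same number did not deviate together (correlation of deviations -0.03). With 2 libraries per cell type this cannot decide whether the numbers mark pairs. With the replicate block 1481 genes were called, the receptors called were 2, the ligands 2, the TRAF list genes 4 and the death receptor arm genes 3. Tnfrsf1a had few counts, and the genes for BAFF and APRIL lay near the floor of 3 counts, which limits what their values show.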
